A study of Homo sapiens with 14 samples.

Results

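Ferrostatin-1 given alone was compared with control in HT-29 cells, an established human colorectal carcinoma line. Ferrostatin-1 cells received 20 uM of the compound in medium for 72 h and had 2 libraries, numbered 1 and 3 in the count columns. Control cells were kept in medium with 0.1% DMSO and had 3 libraries. No culture time is given for control and no DMSO for ferrostatin-1. An effect of the compound therefore cannot be told apart from one of vehicle or time. These 5 libraries are part of 14, and every gene of the table that passed a filter on low counts is a member, which makes 22179 of 36555 gene IDs. Another 2 pairs of groups were used only to show where the response differed: ferrostatin-1 against 20 uM liproxstatin-1 for 72 h (2 libraries), and TNF with ferrostatin-1 (3 libraries) against TNF, labelled as 100 ug/ml for 72 h (2 libraries). All cells are labelled wild type. The study asked why these ferroptosis inhibitors act differently when TNF drives apoptosis of HT-29 cells, and added each compound alone to see what it does to unstimulated cells. The replicates are labelled technical, so p-values measure only the spread between libraries of the same group, estimated over all 14.

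Ferrostatin-1 is a radical-trapping antioxidant. It halts the chain reaction of lipid peroxidation in membranes and thereby blocks ferroptosis, an iron-dependent cell death held in check by the glutathione peroxidase GPX4, by the quinone reductase AIFM2 (FSP1) and by a supply of cystine through SLC7A11. Several gene programmes sense lipids, xenobiotics and oxidants in intestinal epithelium. The aryl hydrocarbon receptor (AHR) pairs with ARNT on xenobiotic response elements and switches on cytochrome P450 genes such as CYP1A1. NRF2 (gene NFE2L2), when released from KEAP1, drives antioxidant and NADPH-producing enzymes, and the liver X receptors (LXR, genes NR1H3 and NR1H2) respond to oxysterols by raising sterol exporters and the fatty acid desaturase SCD. E2F factors drive the genes of DNA replication at the entry to S phase.

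Total counts were 75838597 and 70163241 in the ferrostatin-1 libraries, and 73902221 to 74189938 in the control libraries. Levels are counts scaled to library size by TMM and given as CPM, which does not correct for gene length. All 12 epithelial markers passed the filter on low counts, but so did 10 fibroblast and 8 endothelial markers. Epithelial markers summed to 10293 and 10072 CPM with ferrostatin-1 and to 11417, 12391 and 11382 CPM in control. Most of it came from KRT8 (5056 and 4962 CPM with ferrostatin-1) and KRT18 (2724 and 2658 CPM). EPCAM (543 and 485 CPM) and VIL1 (165 and 169 CPM) were also well expressed, whereas CDX1 (0.111 and 0.328 CPM) and CDH17 (0.553 and 0.507 CPM) were scarce. The label of the line itself was not tested. Leukocyte markers summed to 15.8 and 15.7 CPM with ferrostatin-1 and to 16.1, 13.1 and 15.6 CPM in control, with CD8A at 0 in both ferrostatin-1 libraries and PTPRC, the defining leukocyte gene, not among the genes tested. CD14 made up most of that sum. Fibroblast markers summed to 17.4 and 10.8 CPM with ferrostatin-1 and to 15.4, 6.43 and 4.90 CPM in control, with THY1 and PDGFRA at 0 in ferrostatin-1 library 3. None of the fibroblast or leukocyte markers was called, and their part in the results was not tested. On the first principal component of log2 CPM over the 5 libraries (32.1% of the variance), the ferrostatin-1 libraries lay at -44.2 and -54.3 and the control libraries at 21.6, 77.7 and -0.75, so control library 2 was the farthest from ferrostatin-1. The second component (25.3%) held the ferrostatin-1 libraries apart from each other, at 67.6 and -65.3, with the controls between -6.78 and 9.60.

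In total 125 genes passed edgeR's quasi-likelihood test (Benjamini-Hochberg adjusted p below 0.05), which is 0.564% of the genes tested. Of these, 41 were higher with ferrostatin-1 (0.185%) and 84 were lower (0.379%), and 47 differed at least 2-fold (18 higher, 29 lower). At an unadjusted p below 0.05, 1043 genes were higher (4.7%) and 1683 lower (7.59%). Most of the transcriptome moved little: the median log2 fold change over all genes was -0.01, and the middle of the distribution ran from -0.30 to 0.21 between the lower and upper quartiles. None of the 125 changed by less than 0.41 on the log2 scale, and 119 of them are annotated as protein coding. Of the 84 genes that fell, 24 belong to a cell cycle, replication or repair list, and of the 41 that rose, 18 belong to an NRF2, LXR or fatty acid list. Another 54 falls and 13 rises belong to none of the lists used. For scale, the DNA replication list holds 45 of the 22179 genes tested, the G2 and mitosis list 44 and the NRF2 target list 46. The lists were chosen with earlier results of these data known, so these counts only describe the calls, and an excess was not tested.

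The number of calls depended on single libraries. Without ferrostatin-1 library 1 or 3 it was 25 or 13, with the remaining library assumed to vary like the other groups, and without control library 1, 2 or 3 it was 26, 80 or 295. Of the 65 named genes that passed, 50 lost it without library 1 of ferrostatin-1 and 55 without library 3, and 45, 18 or 2 lost it without control library 1, 2 or 3. All 125 genes kept their direction in each of these 5 fits, and 8 kept the call in each of them: CYP1A1, TNS4, ALDH1A3, TCF19, AKR1B10, SCD, AKR1C1 and AKR1C2. Control library 2 had the highest control level for 71 of the 84 genes that fell and the lowest for 31 of the 41 that rose, against 39.1% and 36.5% of all genes tested. Another 2502 genes differed at least 2-fold without passing, 262 of them with a mean count of at least 50.

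**Figure D1:**
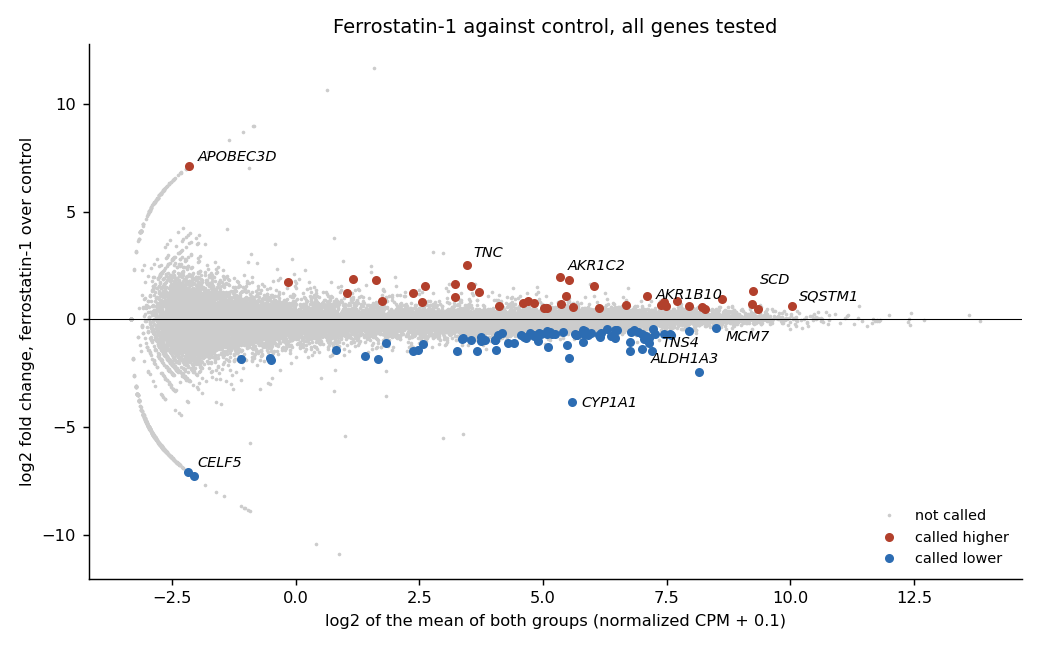
Log2 fold change of ferrostatin-1 over control (vertical axis) against the log2 of the mean of both groups in CPM + 0.1 (horizontal axis) for all 22179 genes tested, with the 41 genes called higher and the 84 called lower in colour. Called genes lie on both sides of 0, and CYP1A1 lies far below 0 at -3.82.

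CYP1A1 and 2 further AHR targets fell with ferrostatin-1. CYP1A1, the cytochrome P450 that oxidises planar aromatic compounds (ENSG00000140465, chromosome 15, 74719542 to 74725536, minus strand, in the positions of the deposited table), had 5.94 and 6.71 CPM in the ferrostatin-1 libraries, against 89.6, 114 and 65.1 CPM in the control libraries. Both ferrostatin-1 values lay far below every control value, and CYP1A1 fell by a log2 value of 3.82 ± 0.24 (SE, adjusted p = 2.51e-05), a 14.2-fold lower level. ALDH1A3, which makes retinoic acid from retinal (ENSG00000184254, chromosome 15, 100877714 to 100916626, plus strand), had 74.7 and 68.0 CPM with ferrostatin-1, against 194, 164 and 192 CPM in control, and fell by 1.36 ± 0.09 (adjusted p = 4.27e-05). CYP1B1, a related P450 (chromosome 2, 38066973 to 38076154, minus strand), had 61.5 and 53.7 CPM with ferrostatin-1, against 159, 171 and 150 CPM in control, and fell by 1.47 ± 0.16 (adjusted p = 0.00309). Without ferrostatin-1 library 3, CYP1B1 no longer passed (adjusted p = 0.073), whereas CYP1A1 and ALDH1A3 passed without any single library. In a bulk sample a smaller number of expressing cells and less RNA per cell cannot be told apart.

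The other AHR targets did not pass. Of 16 AHR targets tested, 3 fell and 13 were not called, with a list median of -0.25 beside -0.01 over all genes, and the number that fell was 3 without any single library other than ferrostatin-1 library 3, and 2 without that one. CYP2S1, another P450 of epithelia, had 54.9 and 62.0 CPM with ferrostatin-1, against 83.8, 77.1 and 89.7 CPM in control (adjusted p = 0.0564). TIPARP, an ADP-ribosylating enzyme that dampens AHR, had 122 and 117 CPM with ferrostatin-1 and 150, 123 and 154 CPM in control. AHRR, the receptor's repressor, was scarce, at 1.13 and 1.69 CPM with ferrostatin-1 and 0.482, 0.651 and 0.679 CPM in control (adjusted p = 0.327). Both ferrostatin-1 values of AHRR lay above the control values, opposite to CYP1A1. The receptor itself was not called: AHR had 114 and 124 CPM with ferrostatin-1 and 96.3, 91.1 and 106 CPM in control, and ARNT had 34.4 and 35.4 CPM with ferrostatin-1 and 35.0, 38.0 and 33.4 CPM in control. NQO1, a quinone reductase shared by the AHR and NRF2 programmes, had 961 and 859 CPM with ferrostatin-1 and 728, 655 and 724 CPM in control (log2 0.37, adjusted p = 0.204).

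The promoters of CYP1A1 and ALDH1A3 are shown because these genes fell and passed without any single library. The window runs from 250 bases before the start site to 50 after it, 5′ to 3′ on the gene's strand, as annotated by RefSeq on GRCh38.p14. Capitals mark matches to the core of the xenobiotic response element, GCGTG, searched on both strands. Sequence outside the window was not searched, and binding of AHR was not tested. CYP1A1 lies in chr15:74725479-74725778 (minus strand) with the core at base -57 from the start site, and ALDH1A3 in chr15:100879581-100879880 (plus strand) with cores at -197 (minus strand) and -43. In the deposited positions ALDH1A3 begins at 100877714, so its window lies inside the gene there. Which start site the counted transcripts used is not known.
CYP1A1: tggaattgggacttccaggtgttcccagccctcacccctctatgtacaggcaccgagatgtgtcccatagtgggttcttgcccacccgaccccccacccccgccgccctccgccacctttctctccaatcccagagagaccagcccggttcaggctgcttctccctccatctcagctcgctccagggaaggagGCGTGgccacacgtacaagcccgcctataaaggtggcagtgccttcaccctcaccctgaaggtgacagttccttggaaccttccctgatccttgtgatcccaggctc
ALDH1A3: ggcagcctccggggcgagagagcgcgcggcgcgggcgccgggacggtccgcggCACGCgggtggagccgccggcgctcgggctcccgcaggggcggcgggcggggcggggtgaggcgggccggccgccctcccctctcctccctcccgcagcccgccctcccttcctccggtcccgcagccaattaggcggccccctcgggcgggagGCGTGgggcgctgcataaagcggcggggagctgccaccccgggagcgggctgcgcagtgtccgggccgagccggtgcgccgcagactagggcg
The core is short and common. It occurred in 36.3% of 27305 promoters, in 48.0% of the 12826 promoters of genes tested, and in 9 of 14 promoters of AHR targets (64.3%). Among called genes with a promoter sequence it occurred in 14 of 33 that rose (42.4%) and in 36 of 63 that fell (57.1%).

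Of 46 NRF2 targets, 10 rose. AKR1C2, a ketosteroid reductase (ENSG00000151632, chromosome 10, 4987400 to 5017955, minus strand), had 69.6 and 60.3 CPM with ferrostatin-1, against 17.0, 14.1 and 18.5 CPM in control, and rose by 1.97 ± 0.17 on the log2 scale (adjusted p = 0.00038). AKR1C1, its neighbour (ENSG00000187134, chromosome 10, 4963253 to 4983283, plus strand), had 74.1 and 69.1 CPM with ferrostatin-1, against 22.5, 14.4 and 23.6 CPM in control, and rose by 1.83 ± 0.21 (adjusted p = 0.00377). AKR1B10, which reduces aldehydes and retinal (ENSG00000198074, chromosome 7, 134527567 to 134541412, plus strand), had 191 and 182 CPM with ferrostatin-1, against 93.5, 74.97 and 93.6 CPM in control, and rose by 1.09 ± 0.13 (adjusted p = 0.00377). For these 3 reductases both ferrostatin-1 libraries stood clear of all controls, and each passed without any single library. AKR1C3, a prostaglandin and steroid reductase, rose by 0.84 ± 0.11 (279 and 257 CPM with ferrostatin-1, 149, 138 and 163 CPM in control). The AKR1C genes are near copies of each other, so how their reads were divided is uncertain.

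Other NRF2 targets that passed were metabolic enzymes and an autophagy receptor. The malic enzyme ME1 had 128 and 122 CPM with ferrostatin-1, against 80.3, 69.9 and 89.3 CPM in control, and rose by 0.65 ± 0.12 (adjusted p = 0.0337), and the isocitrate dehydrogenase IDH1 rose by 0.60 ± 0.09. UGDH, which supplies UDP-glucuronate for conjugation, rose by 0.67 ± 0.09, and the P450 CYP4F11 by 1.03 ± 0.18. SQSTM1 (p62), the autophagy receptor that binds KEAP1, had 1263 and 1276 CPM with ferrostatin-1, against 854, 725 and 896 CPM in control, and rose by 0.62 ± 0.12 (adjusted p = 0.0471). The other 36 NRF2 targets were not called, and the median of the 46 was 0.43. In 27 of the 46 both ferrostatin-1 libraries lay above all controls, against 17.7% of all genes tested.

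Several classical NRF2 targets did not pass, although 40 of the 46 had a positive log2 change. GCLM and GCLC, the subunits that make the first intermediate of glutathione, differed by log2 0.58 (adjusted p = 0.056) and 0.72 (adjusted p = 0.0781). The thioredoxin reductase TXNRD1 had 943 and 915 CPM with ferrostatin-1 and 691, 555 and 743 CPM in control (adjusted p = 0.101). The sulfiredoxin SRXN1 stood at log2 0.64 (adjusted p = 0.129), and the ferritin chains FTL at 0.63 and FTH1 at 0.29 (adjusted p = 0.133 and 0.462). HMOX1, heme oxygenase 1, showed no common direction: it had 29.7 and 17.5 CPM with ferrostatin-1 and 20.6, 23.5 and 25.0 CPM in control. Transcripts of NFE2L2 and KEAP1 stood at log2 0.16 and 0.07 (adjusted p = 0.869 and 0.857). Without ferrostatin-1 library 1 or 3, 3 of the 46 targets rose in each case, and without control library 1, 2 or 3 the count was 3, 6 or 14. The list median without control library 2 was 0.30.

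The promoters of the 2 reductases with the highest rise are shown because both genes moved alike. Capitals mark a match on either strand to TGANNNNGC, a loosened form of the antioxidant response element core that leaves base 4 open. Both marked stretches have G at that base, so they need not be the element, and binding of NRF2 was not tested. AKR1C1 lies in chr10:4963165-4963464 (plus strand) with the match at -41, and AKR1C2 in chr10:5003808-5004107 (minus strand) with the match at -45, both in RefSeq on GRCh38.p14. In the deposited positions AKR1C2 runs from 4987400 to 5017955, so its window lies inside the gene there. Which start site the counted transcripts used is not known.
AKR1C1: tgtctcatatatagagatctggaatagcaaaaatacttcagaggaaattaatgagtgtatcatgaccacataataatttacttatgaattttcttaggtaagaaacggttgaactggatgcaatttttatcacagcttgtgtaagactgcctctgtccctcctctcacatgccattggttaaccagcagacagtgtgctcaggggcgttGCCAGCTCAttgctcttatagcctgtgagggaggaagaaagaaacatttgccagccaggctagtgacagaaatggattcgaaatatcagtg
AKR1C2: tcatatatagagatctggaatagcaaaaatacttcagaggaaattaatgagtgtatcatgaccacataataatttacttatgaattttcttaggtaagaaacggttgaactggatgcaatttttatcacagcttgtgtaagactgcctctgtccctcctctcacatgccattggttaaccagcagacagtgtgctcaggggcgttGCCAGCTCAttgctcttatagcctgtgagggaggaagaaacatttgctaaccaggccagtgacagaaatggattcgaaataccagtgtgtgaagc
Shifted by 4 bases, the windows were identical at 264 of 296 positions (89.2%), and the match fell on the same aligned bases. The loose pattern occurred in 42.1% of all promoters, in 42.8% of those of genes tested, in 18 of 33 NRF2 targets (54.5%), and in 14 of 33 genes that rose (42.4%).

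Of 14 LXR targets, 6 rose, and some further lipid genes passed. SCD, which puts the first double bond into saturated fatty acids (ENSG00000099194, chromosome 10, 100347233 to 100364826, plus strand), had 895 and 837 CPM in the ferrostatin-1 libraries, against 341, 350 and 359 CPM in the control libraries. SCD had the smallest adjusted p of all genes tested and rose by 1.31 ± 0.07 on the log2 scale (adjusted p = 1.07e-05), a 2.47-fold higher level. ABCA1, the exporter that loads cholesterol onto lipoproteins, had 16.1 and 18.2 CPM with ferrostatin-1, against 4.96, 7.25 and 5.38 CPM in control, and rose by 1.55 ± 0.27 (adjusted p = 0.0295). ABCG1, a second sterol exporter, had 94.6 and 100 CPM with ferrostatin-1, against 35.0, 20.3 and 44.9 CPM in control, and rose by 1.55 ± 0.24 (adjusted p = 0.0182). MYLIP (IDOL), a ubiquitin ligase of sterol uptake, rose by 0.85 ± 0.10. LPCAT3, which places polyunsaturated acyl chains in phospholipids, rose by 0.59 ± 0.10, and SREBF1, the lipogenic transcription factor, by 0.62 ± 0.11.

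The other 8 LXR targets were not called, and the median of the 14 was 0.61. The receptors NR1H3 and NR1H2 stood at log2 0.01 and 0.23 and were not called. Of 31 genes of fatty acid synthesis, activation and desaturation, 5 rose and 26 were not called, with a median of 0.24. They were SCD, SREBF1, ME1 and the acyl-CoA synthetases ACSL1 (37.4 and 34.0 CPM with ferrostatin-1, 20.0, 21.6 and 20.8 CPM in control, log2 0.78 ± 0.10) and ACSL5 (779 and 747 CPM with ferrostatin-1, 550, 509 and 576 CPM in control, log2 0.48 ± 0.08). The fatty acid synthase FASN had 607 and 714 CPM with ferrostatin-1 and 547, 529 and 578 CPM in control, and did not pass (adjusted p = 0.465). PLIN2, a coat protein of lipid droplets, rose by 0.53 ± 0.09 as 1 of 21 PPAR targets and lipid droplet genes (list median -0.02), and the glycerol-3-phosphate acyltransferase GPAT3 by 1.07 ± 0.21. Without ferrostatin-1 library 1 or 3, 2 or 1 of the LXR targets and 1 or 2 of the fatty acid genes rose. Without control library 1, 2 or 3, the counts were 2, 4 or 6 LXR targets and 2, 3 or 5 fatty acid genes.

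No gene of cholesterol synthesis passed. Of 26 genes of cholesterol synthesis and uptake, edgeR called 0, with 1 higher and 2 lower at an unadjusted p below 0.05, and limma voom and DESeq2 each called 1 higher. The list median was 0.02. The core of the sterol regulatory element, TCACNCCAC, occurred in 1.15% of all promoters and in 0 of 33 promoters of genes that rose.

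**Figure D2:**
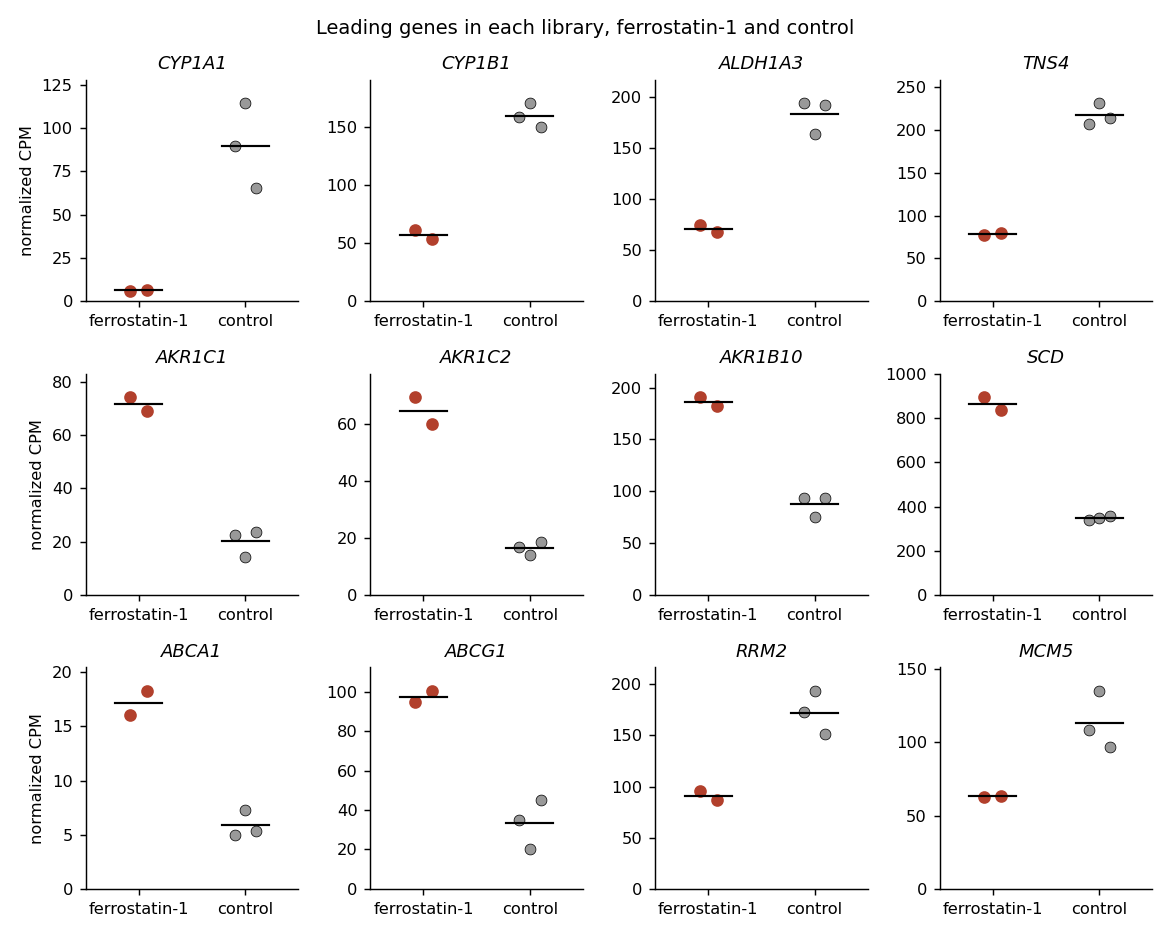
Level in CPM (vertical axes) of 12 genes in each ferrostatin-1 library (left) and control library (right), with a panel per gene and a bar at the group mean. In every panel the 2 ferrostatin-1 points lie outside the range of the 3 control points.

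Of 45 genes of DNA replication, 17 fell. RRM2, the regulated subunit of ribonucleotide reductase, had 95.2 and 86.7 CPM in the ferrostatin-1 libraries, against 173, 193 and 151 CPM in the control libraries, and fell by 0.92 ± 0.10 (log2, adjusted p = 0.00309). MCM5, a subunit of the replicative helicase, had 62.9 and 63.2 CPM with ferrostatin-1, against 109, 135 and 96.7 CPM in control, and fell by 0.85 ± 0.13 (adjusted p = 0.0163). The helicase subunits MCM2, MCM4 and MCM7 fell by 0.73, 0.66 and 0.41, and the helicase partners GINS2, GINS1 and CDC45 by 1.09, 0.85 and 0.73. ORC1 and CDT1, which license origins, fell by 0.96 and 0.67. PCNA, the sliding clamp, had 116 and 119 CPM with ferrostatin-1, against 180, 225 and 167 CPM in control, and fell by 0.70 ± 0.13 (adjusted p = 0.0428). DNA ligase LIG1 fell by 1.03, the polymerase subunit POLE by 0.61, and the thymidine kinase TK1 by 0.84. UHRF1 and DNMT1, which copy DNA methylation, fell by 0.75 and 0.43, and the chromatin assembly subunit CHAF1A by 0.60.

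The other 28 replication genes were not called. The list had a median of -0.65, and 43 of the 45 had a negative log2 change. In 42 of them both ferrostatin-1 libraries lay below all controls, against 17.6% of all genes tested, and the summed level was 2778 and 2770 CPM with ferrostatin-1, against 3988, 4649 and 3652 CPM in control. The 2 ferrostatin-1 libraries agreed closely here, with medians of -0.64 in each. Control library 2 was the highest of the 5 in this sum, and without it the median was -0.53. Without ferrostatin-1 library 1 or 3, 1 or 0 of these genes were called, and without control library 1, 2 or 3 the count was 1, 11 or 24.

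The promoters of MCM2, UHRF1 and PCNA are shown because they carry the element that E2F factors bind. Capitals mark the core TTTNNCGC on either strand. MCM2 lies in chr3:127598161-127598460 (plus strand) with overlapping matches that begin at bases 3 and 7 on opposite strands, UHRF1 in chr19:4909251-4909550 (plus strand) with matches at -112 and -14, and PCNA in chr20:5126573-5126872 (minus strand) with a match at -59, all in RefSeq on GRCh38.p14.
MCM2: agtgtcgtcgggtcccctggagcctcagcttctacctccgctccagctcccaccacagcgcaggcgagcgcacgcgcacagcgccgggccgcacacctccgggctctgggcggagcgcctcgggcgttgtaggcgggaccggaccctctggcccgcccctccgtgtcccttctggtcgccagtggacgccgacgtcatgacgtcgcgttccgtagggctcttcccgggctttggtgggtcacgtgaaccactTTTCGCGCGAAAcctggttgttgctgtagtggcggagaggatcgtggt
UHRF1: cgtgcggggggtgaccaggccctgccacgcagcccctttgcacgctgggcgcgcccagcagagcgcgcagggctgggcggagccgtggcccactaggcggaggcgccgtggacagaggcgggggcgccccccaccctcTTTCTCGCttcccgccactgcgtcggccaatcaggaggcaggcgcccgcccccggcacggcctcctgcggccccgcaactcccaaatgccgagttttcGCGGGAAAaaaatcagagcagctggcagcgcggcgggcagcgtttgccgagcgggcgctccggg
PCNA: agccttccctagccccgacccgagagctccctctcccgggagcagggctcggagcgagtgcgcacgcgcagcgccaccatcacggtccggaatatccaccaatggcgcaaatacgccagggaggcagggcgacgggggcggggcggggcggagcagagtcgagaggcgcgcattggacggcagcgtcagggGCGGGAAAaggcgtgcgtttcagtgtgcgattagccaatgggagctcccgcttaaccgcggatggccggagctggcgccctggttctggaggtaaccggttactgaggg
The core occurred in 6.9% of all promoters of this length and in 9.71% of those of genes tested, in 23 of 40 replication genes (57.5%), in 3 of 33 genes that rose (9.09%) and in 18 of 63 genes that fell (28.6%). Among replication genes it stood in 10 of 15 that fell and in 13 of 25 that were not called. The CCAAT box, searched as CCAAT on both strands, occurred in 11 of 33 genes that rose (33.3%) and in 34 of 63 that fell (54.0%), against 36.1% of the promoters of genes tested.

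Later cell cycle genes leaned the same way with fewer calls. Of 44 genes of G2 and mitosis, 3 fell and 41 were not called, with a median of -0.50. In 42 of the 44 both ferrostatin-1 libraries lay below all controls, against 17.6% of all genes tested. MYBL2, a transcription factor that switches on late cell cycle genes, had 147 and 148 CPM with ferrostatin-1, against 228, 245 and 230 CPM in control, and fell by 0.67 ± 0.08 (adjusted p = 0.00377). The mitotic kinase AURKB fell by 0.56 ± 0.10, and the protease ESPL1 (separase), which parts sister chromatids, by 0.72 ± 0.13. Of 26 repair genes, FANCA and FANCG of the interstrand crosslink pathway fell, by 0.63 and 0.78, with a list median of -0.53. Without ferrostatin-1 library 1 or 3, 0 of the mitosis genes and 0 of the repair genes were called, and without control library 1, 2 or 3 the counts were 1, 1 or 5 mitosis genes and 0, 2 or 3 repair genes. Among 15 E2F and pocket protein genes, E2F8 fell by 1.02 ± 0.20, and E2F1 stood at log2 -0.59 without passing (adjusted p = 0.0662). The kinase CDK2 fell by 0.61 ± 0.10.

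TCF19, a growth-regulated nuclear protein, had 25.4 and 29.6 CPM with ferrostatin-1, against 62.5, 69.5 and 52.8 CPM in control, and fell by 1.16 ± 0.13 (adjusted p = 0.00309). PCLAF, a partner of PCNA, fell by 1.28 ± 0.22, and STMN1, which destabilises microtubules, by 1.09 ± 0.20. Other common markers of proliferation did not pass. MKI67 had 288 and 297 CPM with ferrostatin-1 and 376, 311 and 334 CPM in control (log2 -0.22, adjusted p = 0.528). CCND1 and MYC, which act at entry to the cycle, stood at log2 0.09 and 0.25, and the CDK inhibitor CDKN1A had 74.3 and 69.9 CPM with ferrostatin-1 and 62.9, 27.7 and 71.7 CPM in control, where control library 2 was the low one (adjusted p = 0.669).

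**Figure D3:**
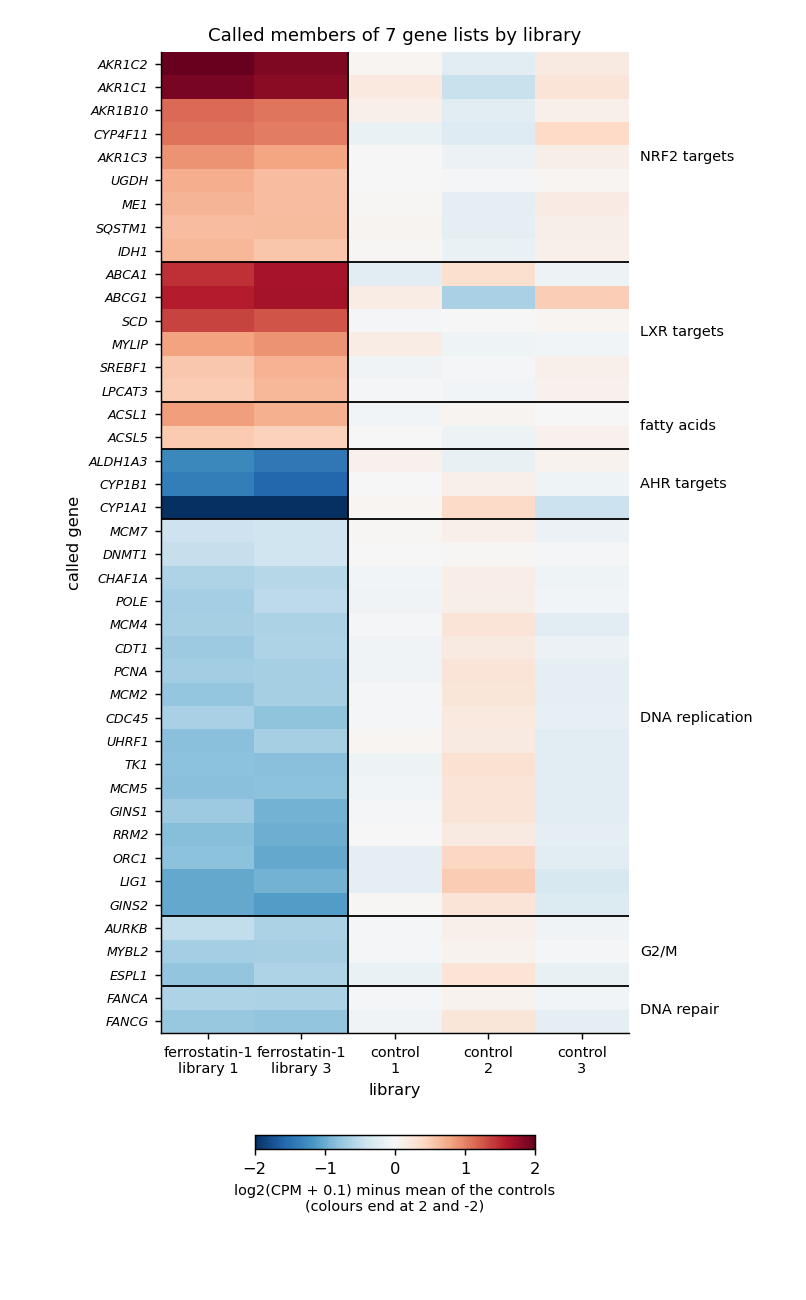
Log2(CPM + 0.1) minus the control mean for 42 called members of 7 gene lists (rows) in the 2 ferrostatin-1 libraries (left columns) and the 3 control libraries (right columns), with colours that end at 2 and -2. NRF2, LXR and fatty acid genes are high in both ferrostatin-1 libraries, and AHR, replication, mitosis and repair genes are low there.

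Single genes of the cell surface and matrix passed. In the lists used, these were 1 of 37 matrix and adhesion genes, higher, and 1 of 17 tight junction genes, lower. Of 21 matrix proteases edgeR called 0, with 3 higher and 3 lower at an unadjusted p below 0.05, 0 by limma voom and 3 by DESeq2. TNS4, a focal adhesion protein, had 77.9 and 79.7 CPM in the ferrostatin-1 libraries, against 208, 231 and 214 CPM in the control libraries, and fell by 1.46 ± 0.15 (log2, adjusted p = 0.00167). CLDN2, which forms cation pores in tight junctions, had 19.9 and 21.5 CPM with ferrostatin-1, against 63.1, 102 and 49.8 CPM in control, and fell by 1.79 ± 0.24 (adjusted p = 0.00799). TNC, the matrix protein tenascin C, had 14.4 and 22.8 CPM with ferrostatin-1, against 2.84, 1.81 and 4.92 CPM in control, and rose by 2.54 ± 0.32 (adjusted p = 0.00581). CLDN2 no longer passed without either ferrostatin-1 library (adjusted p = 0.112 in each case), nor did TNC without library 3 (adjusted p = 0.0817). XYLT1, which starts glycosaminoglycan chains on proteoglycans, and SEMA7A, a membrane-anchored semaphorin, rose by 1.83 and 1.28. CEACAM5 (carcinoembryonic antigen) rose by 1.55 ± 0.18 at a low level, 8.27 and 9.58 CPM with ferrostatin-1 and 2.42, 2.97 and 3.76 CPM in control, and was the 1 epithelial marker of 12 that passed. KRT20, a keratin of differentiated enterocytes, had 524 and 516 CPM with ferrostatin-1, against 269, 206 and 323 CPM in control, and rose by 0.97 ± 0.14 (adjusted p = 0.0145). KRT20 and CEACAM5 were the 2 of 22 absorptive enterocyte markers that passed, and that list had a median of 0.04, with 11 above and 11 below 0. KRT20 was also the 1 of 16 keratins that passed, at a list median of -0.17.

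Transporters, receptors and other enzymes were among the remaining calls. SLC38A4, an amino acid transporter, had 13.8 and 14.3 CPM with ferrostatin-1, against 4.32, 5.82 and 3.14 CPM in control, and rose by 1.66 ± 0.25 (adjusted p = 0.017), and its relative SLC38A5 rose by 0.78 ± 0.13. RHOB, a small GTPase, had 217 and 223 CPM with ferrostatin-1, against 133, 112 and 135 CPM in control, and rose by 0.80 ± 0.10 (adjusted p = 0.00677). CYP4F12 and CYP4F3, P450 enzymes of fatty acid hydroxylation, rose by 1.23 and 1.89, and RDH10, which makes retinal from retinol, by 0.73, while the next enzyme of that route, ALDH1A3, fell. NOX1, the superoxide-producing NADPH oxidase of colon epithelium, had 6.93 and 6.46 CPM with ferrostatin-1, against 16.9, 25.6 and 12.7 CPM in control, and fell by 1.46 ± 0.24 (adjusted p = 0.0265). VIPR1, the receptor of vasoactive intestinal peptide, had 52.98 and 52.0 CPM with ferrostatin-1, against 84.9, 88.4 and 87.8 CPM in control, and fell by 0.73 ± 0.09 (adjusted p = 0.0043). CA9, a carbonic anhydrase induced by hypoxia, fell by 1.04 ± 0.18, as 1 of 22 genes of a hypoxia list. AP002990, an unnamed locus that overlaps EEF1G on the same strand, had 107 and 70.8 CPM with ferrostatin-1, against 507, 510 and 432 CPM in control (log2 -2.44, adjusted p = 0.0223), and reads of the 2 cannot be told apart here.

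A few called genes had no count in a group. AC008264 (ENSG00000273489) had 0 and 0 counts with ferrostatin-1 and 10, 25 and 26 in control, at least 12.97-fold lower when 3 counts over the group are taken as the floor. CELF5, an RNA-binding protein, had 0 and 0 counts with ferrostatin-1 and 13, 24 and 17 in control, at least 11.4-fold lower. APOBEC3D, a cytidine deaminase, had 22 and 13 counts with ferrostatin-1 and 0 in each control library, at least 18.1-fold higher. All 3 rest on few counts, and these limits cover counting error only.

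The compound's known field of action showed few calls. GPX4 had 220 and 222 CPM with ferrostatin-1 and 225, 225 and 217 CPM in control (log2 -0.01, adjusted p = 0.989), with all 5 libraries within a narrow band. SLC7A11, the cystine importer, had 336 and 375 CPM with ferrostatin-1 and 283, 184 and 304 CPM in control (adjusted p = 0.635), and AIFM2 had 100 and 101 CPM with ferrostatin-1 and 77.1, 56.3 and 80.4 CPM in control (adjusted p = 0.152). ACSL4, which primes polyunsaturated lipids for peroxidation, and TFRC, the transferrin receptor, stood at log2 0.23 and -0.13. Of 32 ferroptosis suppressors 1 rose, SCD, and of 35 drivers and markers LPCAT3 rose and NOX1 fell, with list medians of 0.08 and 0.10. Of 19 genes of iron handling edgeR called 0, with 2 higher and 2 lower at an unadjusted p below 0.05, where limma voom called 0 and DESeq2 called 2 higher.

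Lists of stress responses had no call by edgeR. Of 42 targets of ATF4, the factor of the amino acid and integrated stress response, edgeR called 0 and 7 were higher at an unadjusted p below 0.05. Limma voom called 0 and DESeq2 called 1. In 31 of the 42 both ferrostatin-1 libraries lay above all controls, against 17.7% of all genes tested. The ATF4 list median was 0.37, or 0.17 without control library 2. Control library 2 was the low one for many of these ATF4 targets, as in CHAC1, a glutathione-degrading enzyme, with 106 and 106 CPM with ferrostatin-1 and 91.8, 48.9 and 89.4 CPM in control. Of 23 endoplasmic reticulum chaperone genes edgeR called 0 (median 0.33), with 12 higher at an unadjusted p below 0.05, 1 by limma voom and 3 by DESeq2. Of 9 metallothionein and zinc genes edgeR called 0 (median 0.43, or 0.69 without control library 2), with 5 higher at an unadjusted p below 0.05, 1 by limma voom and 2 by DESeq2. Of 13 heat shock genes edgeR called 0 (median -0.04, with 6 above and 7 below 0), with 0 at an unadjusted p below 0.05, 0 by limma voom and 0 by DESeq2. Of 16 genes of the thioredoxin and peroxiredoxin system edgeR called 0 (median -0.02), with 2 higher and 1 lower at an unadjusted p below 0.05, 0 by limma voom and 2 by DESeq2.

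No gene of the inflammatory and death lists passed. Of 36 NF-kB targets edgeR called 0 (median 0.03), with 4 higher and 4 lower at an unadjusted p below 0.05, 0 by limma voom and 2 lower by DESeq2. Of 37 apoptosis regulators edgeR called 0 (median 0.03), with 1 higher and 4 lower at an unadjusted p below 0.05, 0 by limma voom, and 1 higher and 1 lower by DESeq2. Of 50 interferon-stimulated genes edgeR called 0, with 2 higher at an unadjusted p below 0.05 and 0 by limma voom or DESeq2, and the ferrostatin-1 libraries differed from each other, with medians of 0.00 in library 1 and 0.41 in library 3. Of 74 ribosomal protein genes edgeR called 0 (median 0.06), with 1 lower at an unadjusted p below 0.05 and 0 by limma voom or DESeq2.

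**Figure D4:**
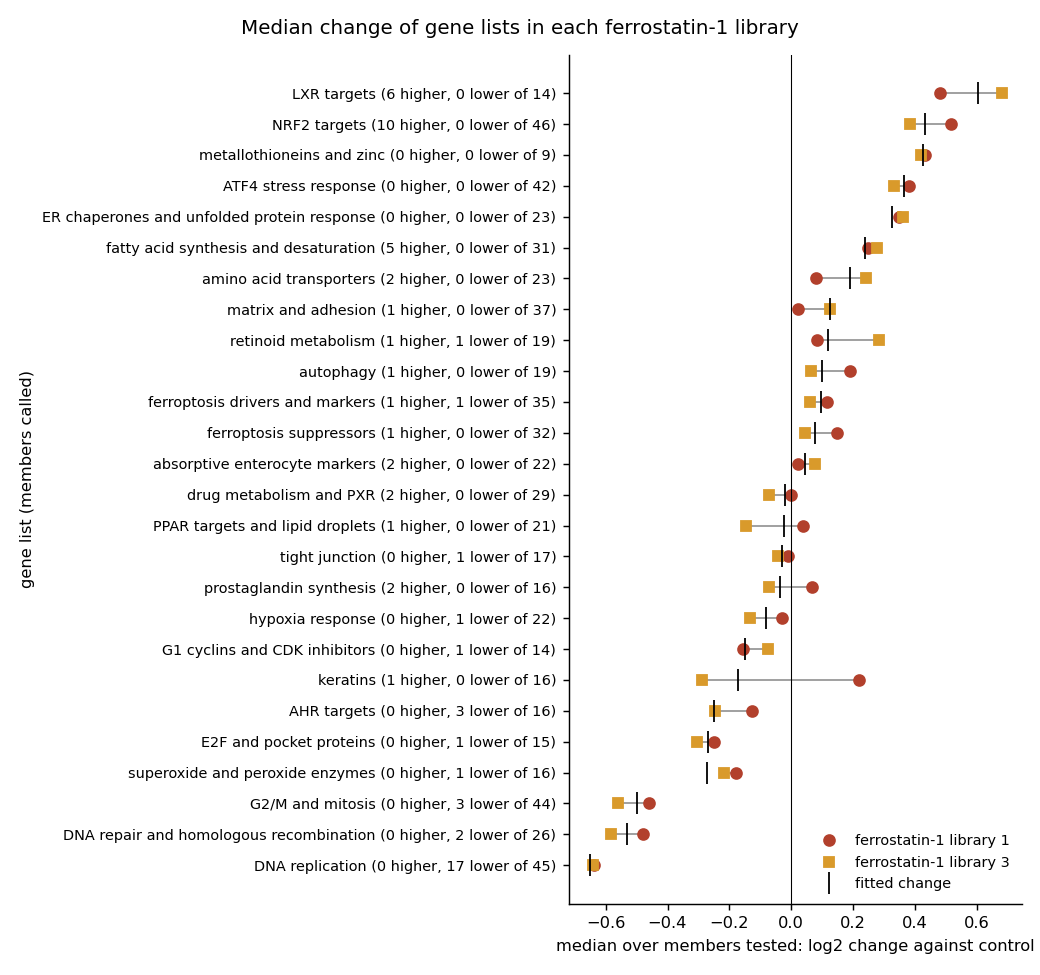
Median log2 change against control (horizontal axis) over the tested members of 26 gene lists (rows), with a point for each ferrostatin-1 library and a bar at the median of the fitted changes. The LXR and NRF2 lists lie to the right of 0 and the replication list to the left at -0.64 in both libraries. The keratin medians differ, at 0.22 in library 1 and -0.29 in library 3. KRT81 (57.1 and 1.45 CPM) and KRT7 (100 and 9.51 CPM) differ widely between the libraries, whereas KRT8, KRT18, KRT19 and KRT20 are close in level.

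The 2 ferrostatin-1 libraries differed from each other at a set of genes that the test did not call. At a mean count of at least 50, 89 genes differed at least 4-fold between them, 52 higher in library 1 and 37 higher in library 3, against 59 to 91 between pairs of control libraries. Examples chosen after their values were seen follow. The keratin KRT81 had 57.1 CPM in library 1 and 1.45 CPM in library 3 with ferrostatin-1, and 48.1, 47.6 and 48.4 CPM in control, and BEST1, a chloride channel, had 292 and 7.65 CPM with ferrostatin-1 and 235, 201 and 316 CPM in control. Library 1 thus lay with the controls for both genes and library 3 far below. Of the 52 genes, 14 were called lower when ferrostatin-1 was added to TNF, against 3.75% of all genes tested, KRT81 among them with 1.47, 1.73 and 1.79 CPM in TNF with ferrostatin-1 and 43.7 and 50.4 CPM in TNF. Endothelial markers ran the other way, with VWF at 0.262 and 22.9 CPM with ferrostatin-1 and 15.3, 16.9 and 1.99 CPM in control, and the 8 endothelial markers summed to 87.3 and 130 CPM with ferrostatin-1 and to 134, 111 and 128 CPM in control, most of it from ESAM. CLDN5 and KDR were at 0 in library 1, and the part of these differences in the results was not tested.

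Ferrostatin-1 was set directly against liproxstatin-1, at the same dose and time, as the 1 pair of inhibitors given without TNF. Both are radical-trapping amines of unlike build: ferrostatin-1 is an ethyl benzoate that carries an amino and a cyclohexylamino group, and liproxstatin-1 is a spiro-fused quinoxaline that carries a chlorobenzyl amine. Of the genes tested, 23 differed (0.104%), 4 higher with ferrostatin-1 (0.018%) and 19 lower (0.0857%), by edgeR's test adjusted over all genes, and 1444 did so at an unadjusted p below 0.05 (6.51%). Among them were 11 of the 125. CYP1A1 had 5.94 and 6.71 CPM with ferrostatin-1, against 84.9 and 80.4 CPM with liproxstatin-1, which is 3.71 ± 0.25 lower on the log2 scale (adjusted p = 9.59e-05). ALDH1A3 had 74.7 and 68.0 CPM with ferrostatin-1, against 173 and 168 CPM with liproxstatin-1, and CYP1B1 had 61.5 and 53.7 CPM, against 183 and 173 CPM with liproxstatin-1. All 3 called AHR targets therefore differed between the compounds.

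Other differences lay in adhesion, transport and receptor genes. TNS4 had 77.9 and 79.7 CPM with ferrostatin-1, against 230 and 201 CPM with liproxstatin-1 (log2 -1.45, adjusted p = 0.00348). SLC38A4 had 13.8 and 14.3 CPM with ferrostatin-1, against 2.19 and 2.03 CPM with liproxstatin-1 (log2 2.73, adjusted p = 0.00375). Its control values, 4.32, 5.82 and 3.14 CPM, lay between those of the compounds. AKR1C2 had 69.6 and 60.3 CPM with ferrostatin-1, against 25.1 and 28.0 CPM with liproxstatin-1 (log2 1.29, adjusted p = 0.0306). NOX1 was lower with ferrostatin-1 by a log2 value of -1.73 (adjusted p = 0.0338), with 22.8 and 21.7 CPM with liproxstatin-1. SLC6A20, an amino acid transporter that did not pass against control, had 4.23 and 6.36 CPM with ferrostatin-1, against 21.1 and 17.0 CPM with liproxstatin-1 (log2 -1.85, adjusted p = 0.00682). Its control values were 7.68, 7.49 and 7.56 CPM, so the liproxstatin-1 values lay farther from control. MUC13 likewise had 69.7 and 81.4 CPM with ferrostatin-1, 168 and 165 CPM with liproxstatin-1, and 102, 97.3 and 103 CPM in control. A lower level with ferrostatin-1 here can thus also be a higher one with liproxstatin-1.

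For the lipid and replication genes the direct comparison found no difference that passed. SCD had 895 and 837 CPM with ferrostatin-1 and 967 and 900 CPM with liproxstatin-1, a log2 difference of -0.11 with a 95% interval of -0.28 to 0.06. The interval for MCM5 was -0.50 to 0.09, for MYBL2 -0.26 to 0.11, and for GPX4 -0.39 to 0.21, so a large difference lies outside each of them, and these intervals are not adjusted for the number of genes. The interval was wide or lay to the side of 0 for others: AKR1C1 differed by 0.82 (0.30 to 1.33), AKR1B10 by 0.61 (0.30 to 0.92), ABCA1 by 1.28 (0.62 to 1.94), TNC by 2.09 (1.29 to 2.89) and RRM2 by -0.53 (-0.77 to -0.30), none of them past the adjusted threshold. Without ferrostatin-1 library 1 or 3 the comparison called 7 or 17 genes, and without liproxstatin-1 library 1 or 3 it called 3 or 12.

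Ferrostatin-1 was also added to TNF, in libraries that share none with the comparison above apart from the common estimate of spread. TNF with ferrostatin-1 differed from TNF at 1224 genes (5.52%), 392 higher (1.77%) and 832 lower (3.75%). The 2 TNF libraries stood far apart, with 299 genes at least 4-fold different, and the count was 589 without TNF library 1, 7373 without TNF library 3, and 191, 69 and 103 without library 1, 2 or 3 of TNF with ferrostatin-1. Of the 41 genes that rose without TNF, 31 had a positive log2 change with TNF and 16 were called higher. Of the 84 that fell, 60 had a negative one, 17 were called lower and 2 were called higher. Genes called in the same direction made up 26.4% of the 125 and 2.7% of the 1224.

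The AHR and NRF2 genes that passed without any single library also differed with TNF. TNS4 (log2 -0.51, adjusted p = 0.052 by edgeR) and TCF19, which likewise kept the call without any single library, were not called with TNF. CYP1A1 had 5.04, 5.67 and 6.03 CPM in TNF with ferrostatin-1, against 106 and 76.4 CPM in TNF (log2 -4.03, adjusted p = 3.49e-06). ALDH1A3 had 74.7, 77.3 and 74.1 CPM in TNF with ferrostatin-1, against 259 and 251.3 CPM in TNF, and CYP1B1 had 61.7, 61.5 and 63.4 CPM, against 113 and 180 CPM in TNF. AKR1C1, AKR1C2 and AKR1B10 were higher in TNF with ferrostatin-1 than in TNF by log2 1.45, 1.42 and 1.201. ABCA1 had 16.8, 18.0 and 19.7 CPM in TNF with ferrostatin-1, against 2.14 and 4.90 CPM in TNF (log2 2.37, adjusted p = 0.00406). SCD had 747, 675 and 719 CPM in TNF with ferrostatin-1, against 471 and 450 CPM in TNF (log2 0.63, adjusted p = 0.00343). Its effect of ferrostatin-1 was smaller by a log2 value of -0.67 with TNF, just short of the threshold (adjusted p = 0.0502).

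Replication genes gave other values with TNF. RRM2 had 192, 191 and 185 CPM in TNF with ferrostatin-1 and 195 and 190 CPM in TNF (adjusted p = 0.92), and MCM5 had 137, 122 and 135 CPM in TNF with ferrostatin-1 and 109 and 117 CPM in TNF (adjusted p = 0.264). PCNA had 315, 325 and 300 CPM in TNF with ferrostatin-1, against 192 and 247 CPM in TNF, and was called higher there (log2 0.52, adjusted p = 0.0446). Over the 45 replication genes the median was 0.15 with TNF, with 5 called higher and 0 lower, and -0.65 without TNF. In the test of the difference between these effects, 1 gene of all those tested passed (0.00451%), WDR76, and no replication gene of the list did. At an unadjusted p below 0.05, 4238 genes differed (19.1%).

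**Figure D5:**
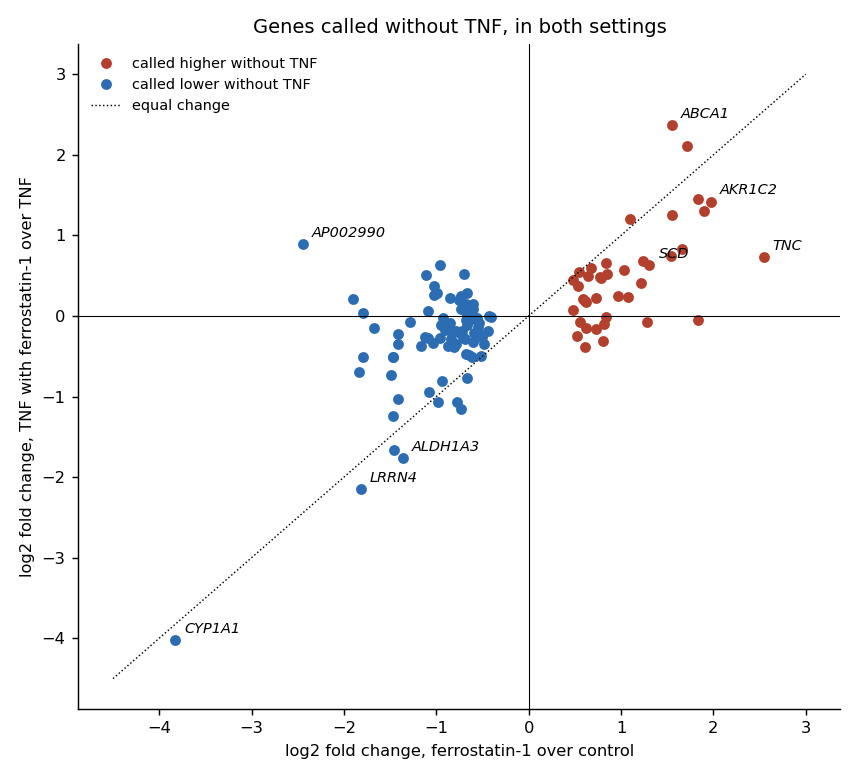
Log2 fold change of TNF with ferrostatin-1 over TNF (vertical axis) against that of ferrostatin-1 over control (horizontal axis) for 122 of the 125 called genes, leaving out 3 with a group at 0 counts. CYP1A1 lies low on both axes at -3.82 and -4.03, and many genes that fell without TNF lie near 0 on the vertical axis.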

How the data were processed

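The libraries were made from poly(A) RNA with a dUTP kit that keeps strand, and were read from both ends, per the labels' protocols. Raw counts per gene, as the authors deposited them, were taken for 36555 gene IDs in 14 libraries, and 14 columns of FPKM were not used. HISAT2 2.0.4, StringTie 1.3.4d, cutadapt 1.9, DESeq2 and edgeR are named without a role in the submitters' processing notes. The build, the annotation, the counting program and its strand setting are not stated in these sources. Overlapping, antisense and paralogous genes are therefore uncertain. Positions are those of the deposited table.

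Groups came from the sample labels. Library numbers are those of the count columns, where ferrostatin-1 has 1 and 3 and the titles have 1 and 2. Genes were kept by edgeR's filterByExpr (22179), scaled by TMM and fitted by quasi-likelihood (edgeR 4.0.16 in R 4.3.3) with all 6 groups sharing the estimate of spread and no covariates. P-values were Benjamini-Hochberg adjusted over all genes, with 0.05 as the threshold. Log2 CPM for the principal components used a prior count of 2, and medians for single libraries log2(CPM + 0.1). Each ± is the standard error of the fitted difference between the groups compared. It rests on the spread estimated over all 6 groups, not on the compared libraries alone. Liproxstatin-1 and TNF contrasts came from the same fit. The script was tested on simulated counts with known changes. Replicate pairs differed beyond sampling noise (chi-square per degree of freedom at least 16.1), so none was merged.

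Named genes were up to 20 rises and 20 falls of at least 2-fold with the largest change, not overlapping between groups and averaging 50 counts or more, the 6 called members of each list with the smallest p, and a fixed set. For the other contrasts they were the 10 called genes with the smallest p. Further names were picked once values had been seen. The members and the 56 gene lists and 4 marker lists were chosen with earlier results of these data known. Alternatives were another scaling, filters, limma 3.58.1 (voom), DESeq2 1.42.0, fewer libraries in the fit, the replicate number as a block, and each library left out. Some genes of the lists count in the totals and are not reported here by name.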

Additional observations from a re-analysis of the deposited data

Results flagged for a closer look

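WDR76, a nuclear WD-repeat protein, stands out because the effect of ferrostatin-1 differed with and without TNF, by a test of the difference itself. It had 11.6 and 13.3 CPM in the ferrostatin-1 libraries, against 25.8, 30.2 and 24.5 CPM in the control libraries (log2 -1.11, adjusted p = 0.00377). It had 34.7, 35.4 and 34.7 CPM in TNF with ferrostatin-1, against 22.5 and 26.6 CPM in TNF (log2 0.51, adjusted p = 0.0424). The difference of the effects was 1.62 on the log2 scale (edgeR's interaction term, adjusted p = 0.0303). It kept its sign, at 1.503 to 1.747, in all 17 alternatives, with adjusted p between 1.12e-13 and 0.236. It did not pass without control library 1 (adjusted p = 0.112), ferrostatin-1 library 1 (0.155), or library 1, 2 or 3 of TNF with ferrostatin-1 (0.125, 0.073 and 0.151), nor with the libraries of these groups alone (0.211) or the replicate number as a block (0.236).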

How the results depend on the processing

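No gene named as risen or fallen changed sign under any alternative run, while some uncalled genes with small changes, such as HMOX1, did. Of 360 medians of 60 lists under the alternatives, 40 moved by more than the spread between libraries, and some that lay near 0 changed sign, as that of PPAR targets and lipid droplet genes did without control library 2 (0.14, against -0.02). The 125 calls for ferrostatin-1 against control became 198 with a stricter filter on low counts, 765 with DESeq2, 13 with the libraries of these groups alone and 62 with the libraries without TNF, and ranged from 13 to 295 when 1 library was left out. The other scaling, no filter and limma voom gave 120, 92 and 136. The 23 calls against liproxstatin-1 became 199 with DESeq2 and 93 with these groups alone, and 3 to 17 with 1 library left out. The 1 call for the difference between the effects with and without TNF became 17 with relative log expression scaling, 36 with the stricter filter, 38 with limma voom, 1309 with DESeq2 and 0 with these groups alone (3393 at an unadjusted p below 0.05), and 0 to 6147 with 1 library left out. The 1224 calls for TNF with ferrostatin-1 against TNF became 537 without a filter, 2821 with limma voom (1496 higher and 1325 lower, where the reported fit has 392 higher and 832 lower), 3953 with DESeq2 (1868 higher and 2085 lower) and 11 with these groups alone, and 69 to 7373 with 1 library left out. The cause of these shifts was not tested.

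The replicate number shared between columns was also used as a block, which gave 22 calls against control, 10 against liproxstatin-1, 0 for the difference between the effects (2997 at an unadjusted p below 0.05) and 294 with TNF. The deviations of ferrostatin-1 and control libraries from their group means correlated at -0.02 to 0.02 over all pairs, same-numbered ones included. With 2 ferrostatin-1 libraries these deviations mirror each other, so the values cannot decide whether same-numbered libraries are paired. Of 1311 values of 101 named genes under the alternatives, 974 kept their side of the threshold, 322 kept the direction without the call, and 15 gained it. With 2 ferrostatin-1 libraries, and with replicates that are labelled technical, small changes of scarce genes were not detectable here.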
